A study of Homo sapiens with 24 samples.

Results

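The response of parental T-47D cells to HRG (heregulin β1) was described across all genes with a probe set of their own, with most room given to metabolism, transport, transcription factors and membrane traffic. It was read from 6 of the 24 arrays of the series: 3 of parental cells given HRG at 20 ng/ml for 6 h and 3 of parental cells given vehicle (PBS). T-47D is a breast cancer cell line of luminal type that expresses estrogen receptor, and all groups were serum starved before treatment, for a time that the methods do not state for the parental cells. The parental cells carried no RNAi, and the other 18 arrays are of cells transfected with a non-target control duplex (NTC) or with a duplex against P-Rex1. The replicates of a group are labelled as biological replicates of this 1 line.

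HRG binds the receptors ErbB3 and ErbB4, which pair with ErbB2 and signal through the PI3K/Akt and Ras/ERK pathways. Signals of this kind are known to act on nutrient uptake, glucose and lipid metabolism and ion transport as well as on growth. They also act on the transcription factors that set the expression of metabolic enzymes and on the vesicle traffic that places transporters and receptors at the cell surface.

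Expression values are log2 levels normalized by the authors with RMA, so that a difference of 1 is a 2-fold change. RMA aligns the arrays by quantile normalization, and the medians of the deposited values still ran from 6.04 to 6.18 over the 24 arrays. A fold change is always HRG over vehicle, its error is the standard error (SE) from limma, a linear model fitted to all 24 arrays, and the p-values quoted are adjusted by Benjamini-Hochberg over the 21042 probe sets with a gene symbol. To be called higher or lower, a probe set had to change by more than 1.5-fold with an adjusted p below 0.05. Array medians of the parental cells lay between 6.07 and 6.12, and the parental vehicle array 3 stood apart from its group on the second principal component, which held 13.2% of the variance. Luminal markers were high in the parental cells (12 genes with medians of 11.18 with HRG and 11.10 with vehicle), and 3 of the 12, ESR1, PGR and ERBB3, were called lower. Of 4 basal markers measured, ACTA2 was called higher, at 9.15 with HRG and 8.07 with vehicle, and the 7 fibroblast markers, none of them called, reached 7.46 with HRG and 7.35 with vehicle (COL1A1). The 5 endothelial markers did not exceed 4.81 with HRG or 4.84 with vehicle, and the 5 leukocyte markers measured did not exceed 5.27 with HRG or 5.45 with vehicle.

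In parental cells 601 of the 21042 probe sets were called higher with HRG (2.86%) and 507 lower (2.41%). Counted as genes with a probe set of a single symbol, 543 of 18374 were higher (2.96%) and 467 were lower (2.54%), together 5.5% of genes. Most changes were modest: 153 genes rose by over 2-fold, 69 fell by over 2-fold, and the other 788 lay between 1.5-fold and 2-fold. The median log2 fold change over all genes was -0.03, and the 3 HRG arrays lay wholly above the 3 vehicle arrays for 18% of all genes and wholly below for 24%. Among the 1010 called genes the 2 groups of arrays did not overlap for 1009, the exception being RSAD2. A single gene tested alone could not go below p = 0.1 by an exact permutation test of 3 against 3 arrays, so all calls rest on the model across genes.

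**Figure D1:**
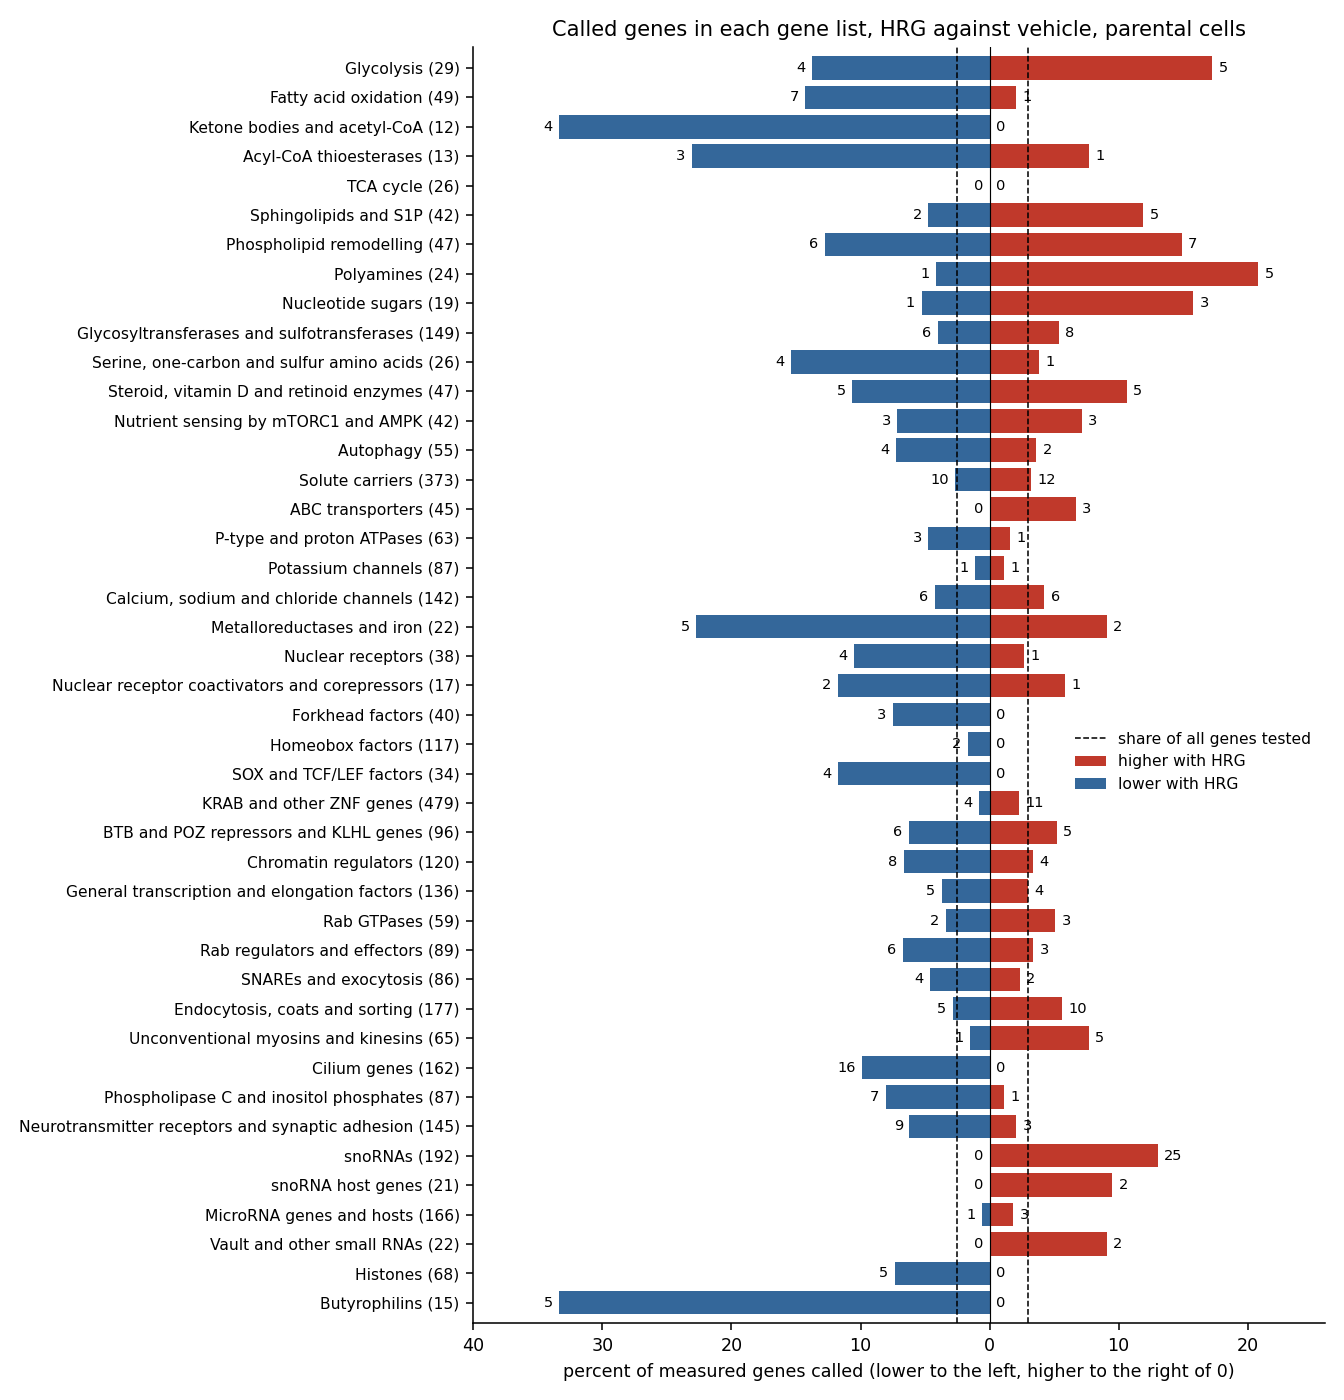
Percent of the measured genes of each list shown (number in brackets) called higher (red, right) or lower (blue, left) with HRG against vehicle in parental cells, with the number of genes at the end of each bar. The dashed lines mark the shares over all genes, 2.96% higher and 2.54% lower. The ketone body and butyrophilin lists reach furthest to the left and the polyamine, glycolysis and nucleotide sugar lists furthest to the right. These are small lists, of 12 to 29 genes. All lists were chosen with earlier results of these data known, so distance from the dashed lines is not a test.

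Genes of glucose metabolism were called in both directions. Of 29 measured genes, 5 were higher (17.2%, against 2.96% of all genes), 4 were lower (13.8%, against 2.54%) and 20 were not called. The median log2 fold change was 0.05. The phosphofructokinase PFKP, which catalyses the committed step, stood at 10.39, 10.30 and 10.44 on the HRG arrays and at 8.95, 9.05 and 9.02 on the vehicle arrays, a 2.58-fold rise (log2 fold change 1.37, SE 0.06, adjusted p = 1.02e-12, limma). Its muscle-type paralog PFKM moved the other way, with a log2 fold change of -0.62 (SE 0.06). The hexokinase HK2 rose 1.70-fold, the enolase ENO2 1.77-fold and TIGAR, which breaks down an activator of phosphofructokinase, 1.83-fold. PDK2, a kinase that shuts pyruvate dehydrogenase, fell 2.20-fold, with 8.17, 8.21 and 8.20 on the HRG arrays and 9.30, 9.28 and 9.40 on the vehicle arrays. GAPDH had log2 levels of 12.56 with HRG and 12.57 with vehicle, ENO1 of 12.48 and 12.45, and none of 26 measured genes of the TCA cycle was called in either direction. Without the HRG array 2 the log2 fold changes of PFKM and of the gluconeogenic enzyme FBP1 became -0.55 and -0.51, under the 1.5-fold threshold, and 2 genes of the list were lower; PGM2L1 had 0.46 without the HRG array 3.

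Most of the genes of fatty acid breakdown that were called were lower. Of 49 measured genes of fatty acid oxidation in mitochondria and peroxisomes, 7 were lower (14.3%, against 2.54% of all genes). The 1 higher gene was 2.04% of the list, against 2.96%, and the median log2 fold change was -0.13. ACSL1, which couples long-chain fatty acids to coenzyme A, had 9.41, 9.38 and 9.46 on the HRG arrays and 10.25, 10.20 and 10.29 on the vehicle arrays (log2 fold change -0.83, SE 0.05, adjusted p = 1.17e-10, limma). Several of the genes that fell act in peroxisomes: the membrane protein PXMP4 fell 2.03-fold and the coenzyme A hydrolase NUDT7 1.92-fold. LONP2, a protease of the peroxisomal matrix, was the member that rose, 1.86-fold. The carnitine palmitoyltransferase CPT1A, which admits fatty acids to mitochondria, had a log2 fold change of -0.23 and was not called. PPARGC1A, a coactivator that drives mitochondrial and fatty acid oxidation genes, had 6.31, 6.22 and 6.19 with HRG against 7.25, 7.13 and 7.20 with vehicle, a fall of 1.94-fold (SE 0.08 on the log2 scale). The calls of PEX11A, MCEE and EHHADH did not hold with each array left out: they had -0.49 (vehicle array 3), -0.53 (vehicle array 1) and -0.47 (HRG array 3).

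Enzymes of ketone bodies and acetyl-CoA formed a small list in which 4 of 12 genes were lower and none was higher. The share lower was 33.3%, against 2.54% of all genes, and the median log2 fold change was -0.39. BDH1 and BDH2, dehydrogenases of 3-hydroxybutyrate, fell 1.68-fold and 1.59-fold, and ACSS1, the mitochondrial acetyl-CoA synthetase, fell 1.64-fold. ACLY, which makes acetyl-CoA in the cytosol, had 11.43 with HRG and 11.51 with vehicle. Leaving out the HRG array 2 took BDH2 to -0.58 and SIRT4 to -0.56 and reduced the count to 2. Among 13 acyl-CoA thioesterases, which release fatty acids from coenzyme A, 3 were lower (23.1%) and 1 was higher (7.69%, against 2.96% of all genes). ACOT6 fell most, with 5.12, 4.80 and 4.98 on the HRG arrays and 6.64, 6.37 and 6.11 on the vehicle arrays (2.66-fold), and ACOT1 and ACOT2 fell 1.87-fold and 1.67-fold. These 3 genes lie on chromosome 14 and ACOT1 and ACOT2 are close paralogs whose probes can share signal. ACOT9, a mitochondrial enzyme, went in the other direction, 1.75-fold up.

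**Figure D2:**
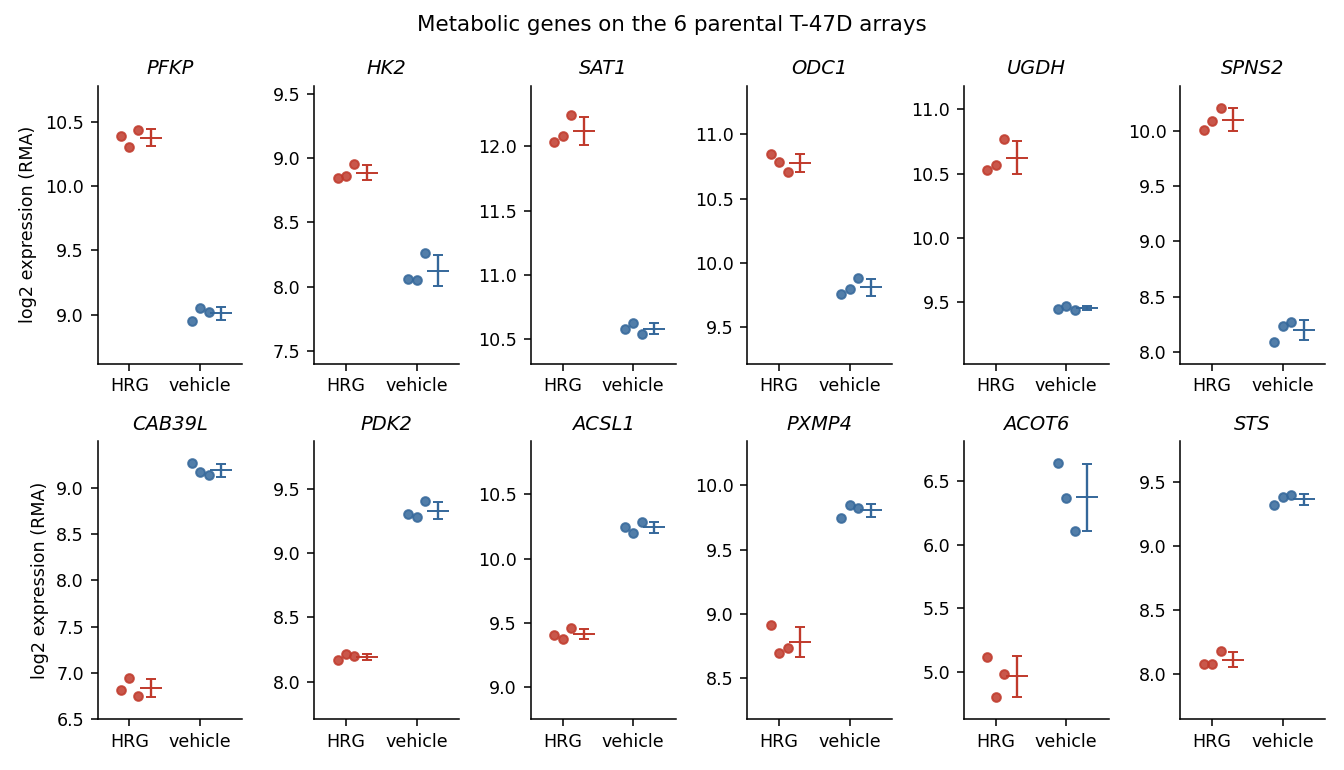
Log2 expression of 12 metabolic genes on the 3 HRG arrays (red, left) and the 3 vehicle arrays (blue, right) of parental cells; points are arrays, and the bar beside them gives the mean and SD. For each gene the 2 groups are apart by more than their spread, PFKP at 10.30 to 10.44 with HRG and 8.95 to 9.05 with vehicle.

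Polyamine genes that rose included the entry steps of synthesis and of breakdown. Of 24 measured genes, 5 were higher (20.8%, against 2.96% of all genes) and 1 was lower (4.17%, against 2.54%). The list median was 0.02. ODC1, the ornithine decarboxylase that begins polyamine synthesis, stood at 10.84, 10.79 and 10.71 with HRG and at 9.76, 9.80 and 9.88 with vehicle (1.96-fold, adjusted p = 9.01e-11, limma). SAT1, which acetylates spermidine and spermine for breakdown and export, rose further, with 12.04, 12.08 and 12.24 with HRG and 10.58, 10.63 and 10.54 with vehicle, a 2.90-fold change. AMD1, which provides the aminopropyl donor, rose 1.83-fold, so enzymes of synthesis and of breakdown were higher in the same cells. The arginase ARG2 rose 1.56-fold and the antizyme OAZ2 fell by 0.62 on the log2 scale; without 1 array they lay at 0.57 (HRG array 3) and -0.56 (HRG array 2). The spermidine synthase SRM had 10.15 with HRG and 9.91 with vehicle and was not called.

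The promoters of the members were searched for letters chosen for each list, and the stretches shown here run over the 250 bases before the RefSeq start site (GRCh38.p14), 5′ to 3′ on the strand of the gene. For the polyamine genes the letters were CACGTG, the E-box, which reads the same on both strands. It occurred in 4 of 20 polyamine promoters (250 bases before the start and 50 after), in 7.27% of all 27305 promoters and in 8.5% of those of the genes tested. The same letters occurred in 2 of 18 nucleotide sugar promoters and in 0 of 17 promoters of snoRNA hosts. Among all genes called higher the share was 7.73%, and among those called lower 8.23%. Of the 5 called polyamine genes with a promoter in the table, ODC1 alone held it, at 29 bases before the start (in capitals in the stretch shown) and again within the 50 bases after it:
ODC1, chr2:10448013-10448262, minus strand: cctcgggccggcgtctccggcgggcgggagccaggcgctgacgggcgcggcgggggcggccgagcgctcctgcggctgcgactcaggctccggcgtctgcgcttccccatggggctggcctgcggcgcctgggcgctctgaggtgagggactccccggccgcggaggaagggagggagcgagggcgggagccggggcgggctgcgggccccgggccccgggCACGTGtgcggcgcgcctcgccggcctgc

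Lipid mediators and membrane phospholipids showed changes in both directions. Of 42 sphingolipid genes, 5 were higher (11.9%, against 2.96% of all genes) and 2 were lower (4.76%, against 2.54%). SPNS2, which exports sphingosine-1-phosphate, was among the 40 genes with the largest rises, with 10.00, 10.09 and 10.21 with HRG and 8.09, 8.23 and 8.27 with vehicle (3.73-fold, log2 fold change 1.90, SE 0.11, adjusted p = 1.38e-11, limma). MFSD2A, a transporter of lysophospholipids, rose 2.04-fold and the ceramidase ACER3 1.68-fold, while the ceramidase ACER1 and the ceramide synthase CERS4 fell by 0.90 and 0.83 on the log2 scale. SPHK1, the kinase that forms sphingosine-1-phosphate, was called at 0.63, but had 0.53 without the HRG array 3. Ceramide synthase CERS2, a bright gene of the list, had 11.87 with HRG and 12.05 with vehicle.

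Of 47 genes of phospholipid remodelling, 7 were higher (14.9%, against 2.96% of all genes) and 6 were lower (12.8%, against 2.54%). GPCPD1, which splits glycerophosphocholine, had 8.52, 8.55 and 8.64 with HRG and 7.25, 7.26 and 6.60 with vehicle, a 2.90-fold rise in which the vehicle array 3 was the lowest. LIPG, endothelial lipase, rose 2.56-fold, LPCAT1, which rebuilds phosphatidylcholine from its lyso form, 2.24-fold, and the phosphatidate phosphatase LPIN1 1.93-fold. The genes that fell were led by TMEM86A, a lysoplasmalogenase, at 6.20, 6.39 and 6.00 with HRG and 7.30, 7.65 and 7.52 with vehicle (log2 fold change -1.29). PLA2G4A, the cytosolic phospholipase A2 that frees arachidonic acid, fell 2.02-fold to 4.16, 4.23 and 4.36, near the bottom of the arrays. GPAT3, an acyltransferase of triglyceride synthesis, rose with a log2 fold change of 2.52.

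Genes that feed and build sugar chains were changed selectively. UGDH, which makes UDP-glucuronic acid for glycosaminoglycans and glucuronides, stood at 10.53, 10.57 and 10.77 with HRG and at 9.45, 9.47 and 9.44 with vehicle, a 2.25-fold rise (adjusted p = 9.92e-09, limma). It was 1 of 3 nucleotide sugar genes called higher among 19 (15.8%, against 2.96% of all genes), with 1 lower (5.26%, against 2.54%). UXS1, TGDS and GNE lay close to the threshold. They had log2 values of 0.53 (vehicle array 3), 0.51 (vehicle array 3) and -0.58 (HRG array 1) when 1 array was left out. Of 149 glycosyltransferases and sulfotransferases, 8 were higher (5.37%) and 6 were lower (4.03%), nearer to the shares of all genes. HS3ST3B1, which adds a rare sulfate to heparan sulfate, rose 3.12-fold, and C1GALT1, which builds the core of mucin-type O-glycans, rose 2.04-fold. The sialyltransferase ST3GAL1 rose 2.37-fold, whereas the polysialic acid enzyme family member ST8SIA6 fell by 1.12 on the log2 scale and SULF1, a sulfatase that trims heparan sulfate outside the cell, fell by 0.84.

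The steroid, vitamin D and retinoid enzymes numbered 47, of which 5 were higher and 5 were lower. That was 10.6% each, against 2.96% and 2.54% of all genes. STS, which frees steroids from their sulfates, had 8.08, 8.08 and 8.18 with HRG and 9.31, 9.38 and 9.39 with vehicle (2.38-fold lower). HSD17B1, which turns estrone into estradiol, was 1.93-fold higher, at 9.41, 9.17 and 9.49 with HRG and 8.54, 8.31 and 8.37 with vehicle. The vitamin D genes moved apart: CYP2R1, an activating hydroxylase, fell by 0.75 on the log2 scale, and CYP24A1, the degrading hydroxylase, was at 4.11, 4.45 and 4.85 with HRG and 3.75, 3.69 and 3.78 with vehicle, near the bottom of the arrays with vehicle, and had 0.54 without the HRG array 3. SDR16C5, a retinol dehydrogenase, rose 2.18-fold and DHRS3, which reduces retinal back to retinol, fell by 0.65. Among 26 genes of serine, one-carbon and sulfur amino acid metabolism, 4 were lower (15.4%) and 1 was higher (3.85%). The phosphoserine phosphatase PSPH fell by 0.98 on the log2 scale and the mitochondrial folate enzyme MTHFD1L rose 1.57-fold. Of these 5 called genes, 2 held their call with each array left out.

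Among genes of nutrient sensing by the kinases AMPK and mTOR, 1 fell by over 2-fold, none rose as far, and most were not called. Of 42 genes, 3 were higher and 3 were lower (7.14% each, against 2.96% and 2.54% of all genes). The median log2 fold change was -0.15. CAB39L, a scaffold of the AMPK-activating kinase LKB1, fell 5.11-fold, with 6.82, 6.94 and 6.75 on the HRG arrays and 9.26, 9.17 and 9.13 on the vehicle arrays. PRKAA2, the α2 catalytic subunit of AMPK, rose 1.74-fold, while PRKAA1, the α1 subunit, had 10.40 with HRG and 10.16 with vehicle and was not called. DEPTOR, an inhibitor of mTOR, fell by 0.74 on the log2 scale, and the adaptor of the insulin receptor IRS1 rose 1.86-fold. NPRL2, part of a complex that restrains mTORC1, fell by 0.62 and had -0.54 without the HRG array 2. Of 55 autophagy genes, 2 were higher (3.64%) and 4 were lower (7.27%). The cargo receptors NBR1 and CALCOCO1 fell by 0.71 and 0.93, and the kinase LRRK2 by 1.23. The ubiquitin-like core proteins GABARAP and GABARAPL2 had log2 fold changes of -0.09 and -0.02.

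Several transporters changed by over 2-fold. Of 373 solute carriers, 12 were higher (3.217%) and 10 were lower (2.681%), close to the shares over all genes. SLC16A9, of the monocarboxylate transporter family, had 7.76, 7.44 and 7.34 with HRG and 5.65, 5.31 and 5.51 with vehicle, a 4.07-fold rise (log2 fold change 2.02, SE 0.12, adjusted p = 4.2e-11, limma). SLC12A2, the sodium-potassium-chloride cotransporter, rose 2.60-fold, with 9.72, 9.80 and 9.89 with HRG against 8.46, 8.42 and 8.38 with vehicle. SLC6A14, which carries neutral and cationic amino acids, rose 2.34-fold, with 9.89, 9.71 and 10.10 with HRG against 8.69, 8.61 and 8.72 with vehicle. The phosphate transporter SLC20A2 rose 2.05-fold and the sodium-bicarbonate cotransporter SLC4A7 1.92-fold. SLC24A3, a potassium-dependent sodium-calcium exchanger, fell 2.35-fold, with 6.95, 7.01 and 7.14 with HRG and 8.25, 8.26 and 8.28 with vehicle, and SLC5A12, a lactate carrier, fell by 0.89. Bright carriers were not called: SLC38A1 had 11.97 with HRG and 11.81 with vehicle, and SLC25A5 11.79 and 11.86.

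The multidrug resistance proteins ABCC1 and ABCC3, pumps for glutathione and glucuronide conjugates, were the clearest of 45 ABC transporters. ABCC1 stood at 9.73, 9.73 and 9.71 with HRG and at 8.50, 8.32 and 8.39 with vehicle (2.49-fold), and ABCC3 at 7.90, 8.16 and 7.76 with HRG and 6.61, 6.74 and 6.62 with vehicle (2.43-fold). A further member, ABCC12, was called at 0.61 and had 0.49 without the vehicle array 3, and no ABC transporter was lower. The 3 called were 6.67% of the list, against 2.96% of all genes. ABCA12, a bright member, had 10.58 with HRG and 10.78 with vehicle.

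**Figure D3:**
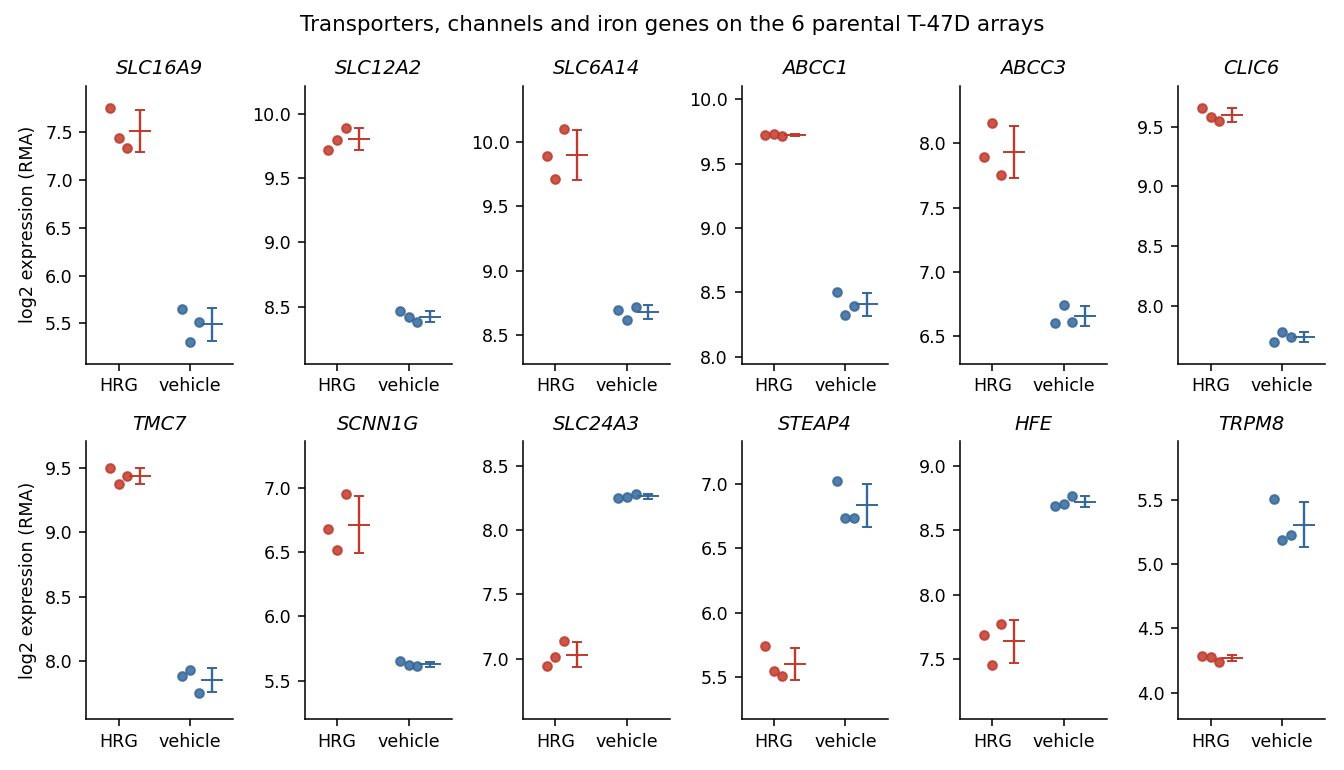
Log2 expression of 12 transporter, channel and iron genes on the 3 HRG arrays (red, left) and the 3 vehicle arrays (blue, right) of parental cells, with the mean and SD of each group beside the points. In SLC16A9 the arrays lie at 7.34 to 7.76 with HRG and 5.31 to 5.65 with vehicle, and in STEAP4 at 5.51 to 5.74 and 6.74 to 7.03.

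Of 142 calcium, sodium and chloride channels, 6 were higher and 6 were lower (4.225% each, against 2.96% and 2.54% of all genes). Of 87 potassium channels 1 was higher and 1 was lower (1.149% each), and of 63 P-type and proton ATPases 1 was higher (1.587%) and 3 were lower (4.762%). CLIC6, a chloride intracellular channel protein, rose 3.61-fold, with 9.66, 9.58 and 9.55 with HRG and 7.70, 7.78 and 7.75 with vehicle. TMC7, a transmembrane channel-like protein, rose 3.00-fold and the γ subunit of the epithelial sodium channel, SCNN1G, 2.12-fold. The cold-sensing channel TRPM8 fell 2.06-fold to 4.28, 4.28 and 4.24, near the bottom of the arrays, against 5.51, 5.19 and 5.22 with vehicle. The endolysosomal channel MCOLN2 fell by 0.80 on the log2 scale. Calcium genes changed in several compartments: ATP2B1, the plasma membrane calcium pump, rose 1.85-fold, while CACNA1D, a voltage-gated channel, and ITPR2, a release channel of the endoplasmic reticulum, fell by 0.71 and 0.66. The potassium channel subunit KCNS3 rose 1.99-fold and the rectifier KCNJ13 fell by 1.06.

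Most of the iron-handling genes called lower were ferric reductases. Of 22 genes, 5 were lower (22.7%, against 2.54% of all genes) and 2 were higher (9.09%, against 2.96%). Of the metalloreductases of the STEAP family, STEAP4 fell 2.35-fold (5.74, 5.55 and 5.51 with HRG, against 7.03, 6.74 and 6.74 with vehicle), STEAP2 1.65-fold and STEAP3 1.59-fold. HFE, the hemochromatosis protein that binds the transferrin receptor, fell 2.12-fold, with 7.69, 7.45 and 7.77 with HRG and 8.69, 8.71 and 8.77 with vehicle. The reductase CYBRD1 fell by 0.60 and lay at -0.56 without the HRG array 2. TFRC, the transferrin receptor, had 12.32 with HRG and 12.33 with vehicle, and the exporter SLC40A1 had -0.51 at an adjusted p of 6.17e-06 (limma), under the fold threshold. The importer SLC39A14 was called at 0.66 and had 0.57 without the HRG array 3. The mitochondrial carrier SLC25A37 was called at 0.65, and another of its probe sets had -0.00.

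Transcription factor families had few called members each. Of 38 nuclear receptors 4 were lower (10.5%, against 2.54% of all genes) and 1 was higher (2.63%, against 2.96%). NR1D2, a repressor of clock and lipid genes, fell 3.10-fold (6.92, 6.94 and 6.83 with HRG, 8.55, 8.50 and 8.54 with vehicle), and RORA, which binds the same DNA element as an activator, was called at 0.67 and had 0.56 without the HRG array 2. The thyroid hormone receptor THRA fell 1.71-fold. The progesterone receptor PGR fell by 0.79 and ESR1 by 0.98, and another ESR1 probe set had 0.00.

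No member of the forkhead, homeobox or SOX and TCF/LEF families was called higher, against 2.96% of all genes. At that share lists of this size hold few such genes. Of 40 forkhead factors 3 were lower (7.5%, against 2.54% of all genes), led by FOXN3 with a log2 fold change of -1.69 (SE 0.07). The pioneer factor FOXA1 had 11.13 with HRG and 11.12 with vehicle. Of 117 homeobox genes 2 were lower (1.709%, under the share of all genes), MKX by 0.96 and the chromatin organizer SATB1 by 0.83. Of 34 SOX, TCF/LEF and related factors 4 were lower (11.8%). SOX2, known from stem cells, was at 8.09, 7.74 and 8.05 with HRG and at 9.22, 8.72 and 9.22 with vehicle (2.13-fold). The Wnt repressor HBP1 was at 7.10 to 7.19 with HRG and 7.92 to 8.09 with vehicle (1.82-fold). TCF4 fell by 0.73, and TCF7L1 had -0.59 with all arrays and -0.57 without the HRG array 3. FOXM1, a factor of mitosis, had -0.62 with all arrays and -0.55 without the HRG array 3.

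The letters TGTTTAC, bound by forkhead factors, were searched on both strands in the promoters of the genes called lower. They occurred in 13 of 389 such promoters (3.34%), in 2.51% of the promoters of all genes tested and in 3.45% of all promoters in the table, so the share among genes that fell was near the background. PLCE1, a phospholipase C, and HBP1 are shown as examples of falling genes that hold it, with the match in capitals as it reads on the strand of the gene:
PLCE1, chr10:94088776-94089025, plus strand: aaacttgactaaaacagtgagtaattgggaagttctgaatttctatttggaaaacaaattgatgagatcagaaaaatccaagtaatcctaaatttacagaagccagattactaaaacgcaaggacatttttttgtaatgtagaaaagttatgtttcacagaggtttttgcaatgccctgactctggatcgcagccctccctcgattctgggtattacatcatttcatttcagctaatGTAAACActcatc
HBP1, chr7:107168753-107169002, plus strand: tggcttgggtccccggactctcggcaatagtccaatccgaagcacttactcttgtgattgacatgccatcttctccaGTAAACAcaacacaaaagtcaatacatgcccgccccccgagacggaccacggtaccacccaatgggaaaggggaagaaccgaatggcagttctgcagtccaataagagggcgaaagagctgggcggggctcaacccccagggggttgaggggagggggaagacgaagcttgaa

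The letters of the AP-1 site, TGAGTCA and TGACTCA (each the reverse complement of the other), were searched in the promoters of the genes called higher. They occurred in 31 of 414 (7.49%), against 3.66% of 13403 promoters of genes not called, 3.08% of those of genes called lower and 5.05% of all promoters in the table. A match is a description of the sequence and not a bound site. The amino acid transporter SLC6A14 and the enolase ENO2 are shown as members of the transport and glycolysis lists, with the match 216 and 94 bases before the start:
SLC6A14, chrX:116436356-116436605, plus strand: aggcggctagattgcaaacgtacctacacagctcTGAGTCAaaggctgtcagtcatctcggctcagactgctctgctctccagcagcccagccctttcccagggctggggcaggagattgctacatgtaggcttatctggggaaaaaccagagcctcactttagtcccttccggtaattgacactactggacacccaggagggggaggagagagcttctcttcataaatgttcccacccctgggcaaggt
ENO2, chr12:6914330-6914579, plus strand: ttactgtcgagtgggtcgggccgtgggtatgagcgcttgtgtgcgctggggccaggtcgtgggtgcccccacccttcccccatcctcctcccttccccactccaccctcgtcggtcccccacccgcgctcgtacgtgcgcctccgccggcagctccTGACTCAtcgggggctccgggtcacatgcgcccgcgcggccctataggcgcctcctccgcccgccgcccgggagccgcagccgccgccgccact

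Genes of repression and elongation were called in both directions. Of 96 BTB and KLHL genes, 5 were higher (5.21%, against 2.96% of all genes) and 6 were lower (6.25%, against 2.54%). The substrate adaptor ENC1 rose 2.64-fold and the repressor BACH2 1.89-fold. KLHL24 fell by 1.66, ZBTB40 by 1.25 and BCL6, a repressor of germinal centre B cells, by 0.82. The general transcription and elongation factors numbered 136, of which 4 were higher (2.94%) and 5 were lower (3.68%), near the shares of all genes. ELL2, an elongation factor of RNA polymerase II, rose 2.34-fold (9.52, 9.57 and 9.88 with HRG, 8.50, 8.36 and 8.42 with vehicle), and AFF3, a relative of elongation complex scaffolds, fell 2.01-fold. TAF1A, a factor of ribosomal RNA transcription, rose 1.97-fold, whereas TAF6L and the elongation factor TCEA3 fell by 0.96 and 0.88. Of 120 chromatin regulators 4 were higher (3.33%, near the share of all genes) and 8 were lower (6.67%). Among them were the remodeller CHD5 (2.01-fold higher) and the histone deacetylase HDAC5, which fell by 0.66. Of 479 ZNF genes, most of them repressors with zinc fingers, 11 were higher and 4 were lower, fewer than the shares over all genes in both directions, though their median log2 fold change was 0.07.

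**Figure D4:**
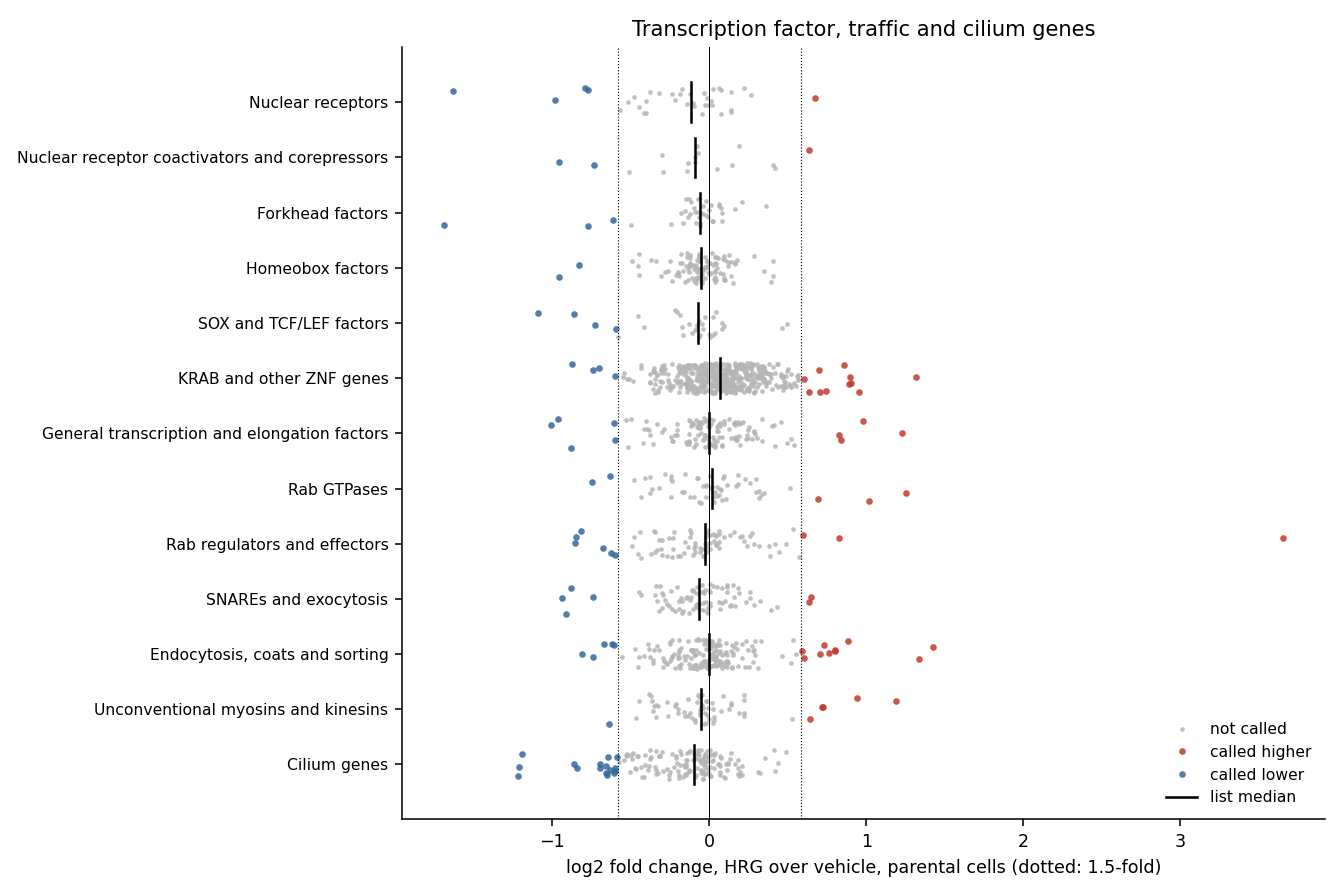
Log2 fold change (HRG over vehicle, parental cells) of every measured gene of 13 lists; red points were called higher, blue points lower, grey points not called, and the black line is the list median. The forkhead, homeobox, SOX and TCF/LEF and cilium lists have no red point, and the point at 3.65 is SYTL2.

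Of 59 Rab GTPases, which mark vesicles and organelles, 3 were higher (5.085%) and 2 were lower (3.39%), near the 2.96% and 2.54% of all genes, and all 5 kept their call with each array left out. RAB31, of the endosomal and Golgi pathway, rose 2.38-fold (10.16, 10.16 and 10.28 with HRG, 8.88, 8.92 and 9.05 with vehicle), RAB32, of lysosome-related organelles, 2.02-fold and RAB30, of the Golgi, 1.61-fold. RAB38, the closest relative of RAB32, moved the other way and fell by 0.63, and RAB17, of epithelial recycling, fell by 0.75. Abundant Rabs of the core pathways were not called, RAB7A at 12.10 with HRG and 12.02 with vehicle and RAB5C at 11.96 and 12.08. Rab regulators and effectors numbered 89, of which 3 were higher (3.37%) and 6 were lower (6.74%, against 2.54% of all genes). Among them SYTL2 rose 12.6-fold, and SYTL3 and MYRIP, which also bind Rab27, fell by 0.85 and 0.86. Of the TBC domain proteins that switch Rabs off, TBC1D5 fell by 0.82, and TBC1D17, TBC1D2 and TBC1D25 were also called lower. Without the HRG array 2, TBC1D2 and TBC1D25 had -0.58 and -0.54, under the fold threshold.

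Of 86 SNARE and exocytosis genes, 2 were higher (2.326%) and 4 were lower (4.651%), also near the shares of all genes. STX5, a syntaxin of transport between endoplasmic reticulum and Golgi, fell by 0.88 (SE 0.07), and the regulators of secretory granules CADPS2, SYT1 and STXBP5L fell by 0.94, 0.91 and 0.74. The surface syntaxin STX2 rose 1.57-fold, and STX11 was called at 0.64 with 0.53 without the HRG array 3. VAMP8 and YKT6, bright SNAREs, had log2 fold changes of -0.13 and 0.26 and were not called.

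Of 177 genes of endocytosis, coats and sorting, 10 were higher (5.65%, against 2.96% of all genes). The 5 lower were 2.825%, near the 2.54% of all genes. SH3D19, an adaptor of membrane shedding and endocytosis, rose 2.68-fold, and CAVIN1, a coat protein of caveolae, 2.52-fold, with the dynamin-like ATPase EHD2, found at the neck of caveolae, at 1.63-fold. The clathrin light chain CLTB rose 1.74-fold, whereas the heavy chain CLTC had 11.78 with HRG and 11.71 with vehicle. SNX9, which couples membrane bending to actin, rose 1.74-fold, and the endocytic adaptor EPS15L1 fell by 0.74. Another falling gene, SNX29, had a second probe set at -0.06. Of 65 unconventional myosins and kinesins, 5 were higher (7.69%) and 1 was lower (1.54%). MYO1E rose 2.28-fold, MYO10, a motor of filopodia, 1.92-fold, and MYO5A and MYO6 1.65-fold and 1.56-fold. KIF20A, a kinesin of cell division, had -0.64 with all arrays and -0.46 without the HRG array 3.

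Cilium genes were called in 1 direction. Of 162 genes, 16 were lower (9.88%, against 2.54% of all genes) and none was higher (against 2.96%). The list median was -0.10. CFAP206 and KATNAL2 fell 2.32-fold each, and CFAP44 2.29-fold, though a second CFAP44 probe set had -0.55 and was not called. The transcription factor RFX5, which entered the list by its symbol and not by a known role in cilia, fell by 0.69. The count was 11 without the vehicle array 1 and 12 with array medians subtracted, and 10 of the 16 kept their call with each array left out. Bright genes of the list were not called, IFT46 at 10.45 with HRG and 10.78 with vehicle and DNALI1 at 9.85 and 9.89.

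Of 87 phospholipase C and inositol phosphate genes, 7 were lower (8.05%, against 2.54% of all genes). Another 1 was higher (1.15%, against 2.96%) and 79 were not called. The median log2 fold change was -0.04 against -0.03 over all genes. PLCE1, a phospholipase C that responds to Ras GTPases, had 8.67, 8.49 and 8.36 with HRG and 9.74, 9.66 and 9.61 with vehicle (2.24-fold), and PLCB1 fell by 0.76. PLCG2, a bright member, had 12.70 with HRG and 12.64 with vehicle. Of 145 neurotransmitter receptor and synaptic adhesion genes, 9 were lower (6.21%) and 3 were higher (2.07%). All 12 kept their call with each array left out. The butyrophilins, immunoglobulin-like proteins seen by T cells, had 5 lower of 15 (33.3%, against 2.54% of all genes). BTN3A1 was at 5.81 with HRG and 6.94 with vehicle. The called genes included BTN3A2 and BTN3A3, paralogs of BTN3A1 whose probes can share signal. The count was 3 with array medians subtracted or with quantile normalization, and BTN3A2 had -0.48 without the vehicle array 2.

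Small RNA genes and the genes that hold them were not always called together. These probe sets are of short transcripts, and the array does not tell a mature RNA from its precursor. MIR21, the gene of microRNA 21, had 8.55, 8.93 and 9.43 with HRG and 6.91, 6.61 and 6.99 with vehicle, a 4.39-fold rise (log2 fold change 2.13, SE 0.23, adjusted p = 1.85e-07, limma). VMP1, the autophagy gene whose RefSeq span (GRCh38.p14) holds MIR21 on chromosome 17, had 11.92 with HRG and 11.79 with vehicle and was not called. DLEU2, the host of MIR15A and MIR16-1 on chromosome 13, rose 1.82-fold. The probe set of MIR15A had 7.10 with HRG and 7.03 with vehicle and was not called. That of MIR16-1 had 3.67 and 3.76, near the bottom of the arrays, where a change is hard to see. MIR17HG, the host of a cluster of 6 microRNA genes, rose 1.79-fold. Of 166 microRNA genes and hosts, these 3 were higher (1.81%, against 2.96% of all genes) and 1 was lower (0.602%, against 2.54%).

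The mature sequences of these genes (RefSeq, GRCh38.p14) are given for MIR21 and for a pair from each host, with the seed, bases 2 to 8, in capitals. The members of each pair share their seed:
hsa-miR-21-5p: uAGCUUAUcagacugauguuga
hsa-miR-15a-5p: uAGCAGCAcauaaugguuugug
hsa-miR-16-5p: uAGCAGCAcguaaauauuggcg
hsa-miR-17-5p: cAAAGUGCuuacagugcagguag
hsa-miR-20a-5p: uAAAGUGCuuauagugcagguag

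The small nucleolar RNAs (snoRNAs), which guide the modification of ribosomal RNA, were called higher more often than other genes. Of 192, 25 were called higher (13.021%) and none lower, against 2.96% of all genes, with a median of 0.16 against -0.03. Of the 7 snoRNAs with their own probe set inside GAS5, a host whose introns carry a run of snoRNAs, 6 were called, led by SNORD77 (1.18), SNORD75 (1.04) and SNORD81 (0.97). Over all 10 probe sets of the GAS5 locus, those with several symbols included, 8 were higher and the log2 fold changes ranged from 0.38 to 1.18. The 8 probe sets of the SNHG1 locus ranged from 0.47 to 1.06, and 6 were higher. None of 40 snoRNAs inside SNHG14, an imprinted cluster, was called, and their array medians lay at 3.13 to 3.20 with HRG and 3.13 to 3.35 with vehicle. Some members of that cluster were bright and not called, such as SNORD116-15 at 11.54 with HRG and 11.60 with vehicle and SNORD116-14 at 10.12 and 10.25, though these are near-identical copies whose probes can share signal. The host of 10 of the 25 called snoRNAs had a probe set of its own, and none of these 10 hosts was called. SNORD58A rose with 1.13, for example, and its host RPL17 had 0.18 (adjusted p = 0.223, limma), and SNORD43 with 0.73 while RPL3 had -0.01. Some of the 10 rose at an adjusted p under 0.05 (limma), by at most 0.26. In a list of 21 measured snoRNA hosts 2 were higher (9.52%, against 2.96% of all genes), SNHG17 and EIF4G2. SNHG17 had 0.71, while its own snoRNAs had at most 0.17 and were not called. EIF4G2 had 0.57 without the vehicle array 3.

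The snoRNA count depended on 1 array. The median over the 7 GAS5 snoRNAs was 9.70, 9.69 and 9.63 on the HRG arrays and 8.89, 8.83 and 8.37 on the vehicle arrays, and 24 of the 25 called snoRNAs had their lowest value on the vehicle array 3. Without that array 16 snoRNAs were called higher. The vault RNAs VTRNA1-1 and VTRNA1-3, other short noncoding RNAs, rose 2.02-fold and 1.85-fold. Histone genes, whose transcripts follow DNA replication, had 5 lower of 68 (7.35%, against 2.54% of all genes) and a median of -0.24. Without the HRG array 2 only 1 was lower. None of the 5 was called in NTC cells, where the list median was also below 0, at -0.17.

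**Figure D5:**
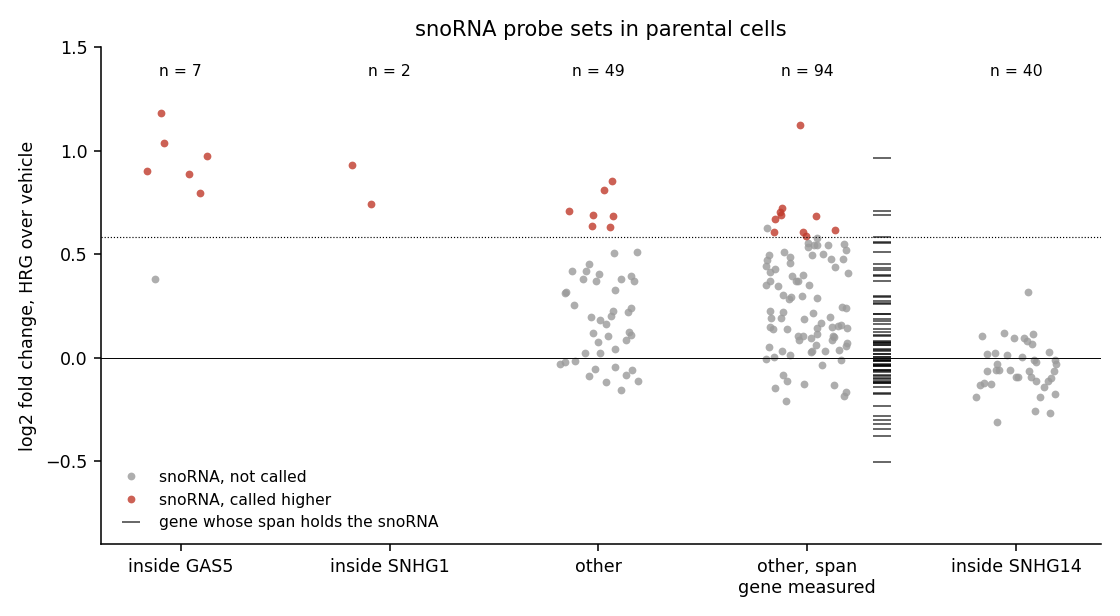
Log2 fold change (HRG over vehicle, parental cells) of 192 snoRNA probe sets by the gene whose RefSeq span holds them; red points were called higher, grey points not called, the dotted line is 1.5-fold, and the black dashes are the hosts that have their own probe set. The 7 GAS5 snoRNAs lie at 0.38 to 1.18 and the 40 of SNHG14 at -0.31 to 0.32.

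The NTC cells gave the same comparison on 6 arrays that share none with the parental cells. In them 505 genes were higher (2.75%) and 654 lower (3.56%), from 555 probe sets (2.64%) and 709 probe sets (3.37%). Of the genes called in parental cells, 412 of the 543 higher and 377 of the 467 lower were also called in NTC cells, and none changed sign there. The log2 fold changes stood side by side at 1.37 in parental and 1.38 in NTC cells for PFKP, 1.54 and 1.59 for SAT1, 1.90 and 2.15 for SPNS2, 2.02 and 1.81 for SLC16A9, 1.32 and 1.34 for ABCC1, 2.13 and 2.08 for MIR21, and -2.35 and -2.69 for CAB39L. Of the snoRNAs, 25 were higher in parental and 11 in NTC cells, and SNORD77 had 1.18 in parental and 0.59 in NTC cells. The cilium list had 16 lower in parental and 22 in NTC cells. No probe set had a response that differed between parental and NTC cells at an adjusted p under 0.05 (limma; 0 of 21042, smallest adjusted p = 0.603), while 1727 did at an unadjusted p under 0.05.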

How the data were processed

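Total RNA of 24 T-47D samples was hybridised by the authors to Affymetrix Human Gene 1.0 ST arrays. The log2 expression values of 28536 probe sets deposited by the authors had been background-adjusted and normalized with RMA (the sources used here give no version). Sample titles in the table header gave each column its sample, and 0 columns were left unused. Arrays carry no counts, so the number of arrays limits the precision, and RMA compresses changes of dim probe sets. The annotation pairs 19292 probe sets with 1 symbol and 1750 with several, and 7494 have none here. It names no build, so no probe set coordinates are given, and 19261 single symbols matched RefSeq (GRCh38.p14). A gene with several probe sets is given by the brightest over 24 arrays.

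The groups were compared with limma 3.58.1 in R 4.3.3 (a mean per group, all 24 arrays), with the thresholds given above. The test was first run on simulated data. Same-numbered HRG and vehicle arrays of the parental cells deviated together (correlations 0.12, 0.14 and 0.25, all other pairs at most 0.07). Pairing by number was therefore run as an alternative (the replicate block), on the data rather than on a stated link. The errors and p-values quoted in the results are from the fit without pairing. Named genes were the 40 largest rises and falls among called genes without overlap, up to 8 called members of each list in each direction, up to 4 members per list that were not called (those with the highest level), genes whose response differed between parental and NTC cells (0 found), and cell type markers. VMP1, MIR15A, MIR16-1, RSAD2, SNORD43, SNORD116-14, SNORD116-15 and RPL17 were added after their values were seen. The members and gene lists were chosen with earlier results of these data known. Lists are described by counts and medians only. A further gene list is not reported here. Alternatives were the replicate block, the parental arrays alone, filters, variance models, scalings, thresholds and each array left out. Python 3.11.15, scipy 1.17.1 and matplotlib 3.10.9 served for exact tests and plots. The P-Rex1 RNAi arrays entered the fit and are not described here.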

Additional observations from a re-analysis of the deposited data

Results flagged for a closer look

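Probe sets with no gene symbol stood outside the comparisons above. When all 28536 probe sets were fitted together, 112 of these 7494 were called higher with HRG in parental cells and 28 were called lower, with log2 fold changes up to 1.74 and down to -1.27 (limma). That is 1.49% higher and 0.374% lower, both under the shares of named genes. Their identity was not looked up.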

How the results depend on the processing

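With the replicate block (pairing the same-numbered arrays), 601 probe sets were higher and 508 lower in parental cells, all 1010 called genes kept their call, and the difference between parental and NTC cells still had 0 probe sets (smallest adjusted p = 0.378). The block changed no other call of the genes named. A fold change over 2 left 165 higher and 70 lower in parental cells and 168 and 100 in NTC cells, and no fold threshold gave 2844 higher and 3640 lower in parental cells and 2867 and 3702 in NTC cells. With 1 parental array left out, the counts ran from 538 to 664 higher and from 447 to 577 lower, and with 1 NTC array left out those of NTC cells ran from 530 to 575 higher and from 571 to 859 lower. The difference stayed at 0 with each of the 12 arrays left out, with the 12 arrays alone and without dim probe sets (smallest adjusted p from 0.413 to 0.942). Of 1010 called genes, 734 kept their call with each parental array left out, and no called gene named changed direction under any alternative. Subtracting array medians gave 683 higher and 410 lower and moved the median of all genes to 0.00; of 360 called genes named, 333 kept their call. Alternatives for NTC cells were added after the data were seen. Changes between 1.5-fold and 2-fold, and genes near the bottom of the arrays, are measured least firmly.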
